A study of Mus musculus with 45 samples.

Results

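A group of 3 stretches of the mouse genome far from any protein-coding promoter held peaks of the transcriptional repressor Capicua (CIC). Their peaks ranked between 1 and 18 by −log10 q in the lists of the cerebellum. The stretches lie beside or inside Mrc2, Clstn2 and Sipa1l2. The members described here are all peaks of the CIC peak lists whose summit falls in the body of 1 of these 3 genes or within 200 kb of either end. They number 12 of 7196 peaks in all, that is 5 of 4588 peaks in wild-type (WT) mice, 4 of 1690 in 154Q mice and 3 of 918 in 154Q[V591A;S602D] mice, and they fall on 5 sites. The genes were chosen by the high −log10 q of their peaks in these same lists, so ranks, −log10 q, fold enrichment, pileups and summit positions are given as a description, with no test. By fold enrichment the ranks ran from 3 to 110 in WT and from 7 to 743 in 154Q[V591A;S602D] mice.

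CIC binding was profiled by CUT&RUN, in which an antibody brings a nuclease to its target protein and the DNA underneath is cut out and sequenced. Cerebella of 10-week-old C57BL/6 mice of 4 genotypes were used, namely WT (n = 4), 154Q (n = 4), 154Q[V591A;S602D] (n = 3) and CIC KO (n = 4). 154Q mice carry a knock-in Atxn1 allele with an expanded glutamine tract opposite a normal-length 2Q allele, and model spinocerebellar ataxia type 1. The 154Q[V591A;S602D] allele adds to this expansion a pair of substitutions, named by human ATXN1 numbering, that disturb the contact of ATXN1 with CIC. CIC KO mice are Engrailed1-Cre;Cicfl/fl animals, in which Cre is driven by Engrailed1 and removes Cic in cells with a history of its expression, and which the study used as the negative control for CIC binding in cerebellum. Nuclei of each of 15 animals were divided over 3 antibodies, which gave 45 samples, and the 30 H3K27ac and IgG samples were not analysed here. The authors merged the animals of a genotype before peak calling, with the merged CIC KO libraries as the control, so each genotype is a single observation, no spread between animals can be given, and the same control stands behind every list. The KO libraries enter the lists only as background, and loss of Cic in them cannot be checked here.

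CIC is a high-mobility-group box protein that binds the octamer TGAATGAA and close spellings of it, and represses genes such as the ETS factors Etv1, Etv4 and Etv5 and the feedback inhibitors of RAS–MAPK signalling of the Sprouty, Spred and Dusp families. In brain CIC forms a stable complex with ATXN1, the protein whose glutamine tract is expanded in spinocerebellar ataxia type 1. Mrc2 encodes an endocytic collagen receptor of the mannose receptor family, Clstn2 a calsyntenin, which is a cadherin-like membrane protein of synapses, and Sipa1l2 a GTPase-activating protein for Rap found at synapses.

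The sequence at the 3 strong sites is shown first because the octamer is what CIC is known to read. All are GRCm38 plus-strand sequence around the WT summit, with exact octamers (TGAATGAA, TGAATGGA, TCAATGAA or TCAATGGA on either strand) and octamers that keep the core TGAATG with 1 mismatch after it in capitals. The Sipa1l2 stretch extends farther to the right so that its only exact octamer is included.
Mrc2 strong site, chr11:105353295-105353415: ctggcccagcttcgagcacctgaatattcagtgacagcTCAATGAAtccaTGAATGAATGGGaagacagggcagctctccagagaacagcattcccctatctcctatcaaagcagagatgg
Clstn2 strong site, chr9:97685739-97685859: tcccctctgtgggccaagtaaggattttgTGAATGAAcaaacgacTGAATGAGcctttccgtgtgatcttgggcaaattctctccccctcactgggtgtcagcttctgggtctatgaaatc
Sipa1l2 strong site, chr8:125317719-125317879: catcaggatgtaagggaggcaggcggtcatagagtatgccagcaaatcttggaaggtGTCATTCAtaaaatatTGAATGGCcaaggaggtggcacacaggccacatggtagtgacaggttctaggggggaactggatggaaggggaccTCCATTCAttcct
The fourth distal peak of the WT top 20 lies in an intron of Spred1, a known CIC target, and is printed for comparison with its exact octamers in capitals.
Spred1 intron peak, chr2:117123127-117123227: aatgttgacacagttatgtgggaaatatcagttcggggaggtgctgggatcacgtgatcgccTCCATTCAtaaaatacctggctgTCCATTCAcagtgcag

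The Mrc2 strong site was an intergenic peak at chr11:105353013-105353541 in WT mice. Mrc2 lies on the plus strand at chr11:105292643-105351139, and the WT summit fell 2216 bp past its 3′ end. On the other side, March10, a ubiquitin ligase gene on the minus strand, ended 7443 bp away, so that the peak sat between the 3′ ends of a pair of converging genes. The nearest start site of any gene, that of the non-coding gene Gm11638, was 9897 bp away, and the nearest start site of a protein-coding gene, that of Mrc2 itself, was 60687 bp away. The peak was called in all 3 lists. In WT mice its −log10 q was 446 and its rank 2 of 4432, in 154Q mice 922 and 1 of 1690, and in 154Q[V591A;S602D] mice 117 and 3 of 848. Ranks are those of distinct peaks by −log10 q after removal of peaks in which over 50% of the bases are repeat-masked. In 154Q mice no CIC peak of the list, promoters included, ranked above it.

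The Clstn2 strong site lay inside its gene, at chr9:97685638-97686028 in WT mice. Clstn2 spans chr9:97444395-98033181 on the minus strand, and the WT summit fell in intron 2, 102101 bp from exon 3 and 113549 bp from exon 2. The nearest start site of any gene, Gm37661, was 244356 bp away, that of a protein-coding gene, Trim42, 315841 bp away, and the nearer start site of Clstn2 347184 bp away. Its −log10 q was 229 in WT mice, 320 in 154Q mice and 45.0 in 154Q[V591A;S602D] mice, which gave ranks 5, 6 and 9.

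The Sipa1l2 strong site was intergenic, at chr8:125317582-125317994 in WT mice. Sipa1l2 lies at chr8:125418063-125569808 on the minus strand, and the WT summit fell 100284 bp past its 3′ end and 174931 bp from its nearest start site. The other flanking protein-coding gene, Disc1, which encodes a scaffold protein of neurons, ended 55921 bp away on the opposite side, so the site was closer to Disc1 than to the body of Sipa1l2. The nearest start site of any gene belonged to Gm16237, 90456 bp away. Its −log10 q was 208 in WT mice, 370 in 154Q mice and 23.7 in 154Q[V591A;S602D] mice, with ranks 6, 5 and 18. Peak positions alone do not say which of the flanking genes, if any, a site acts on, and the gene names are used here for location.

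**Figure D1:**
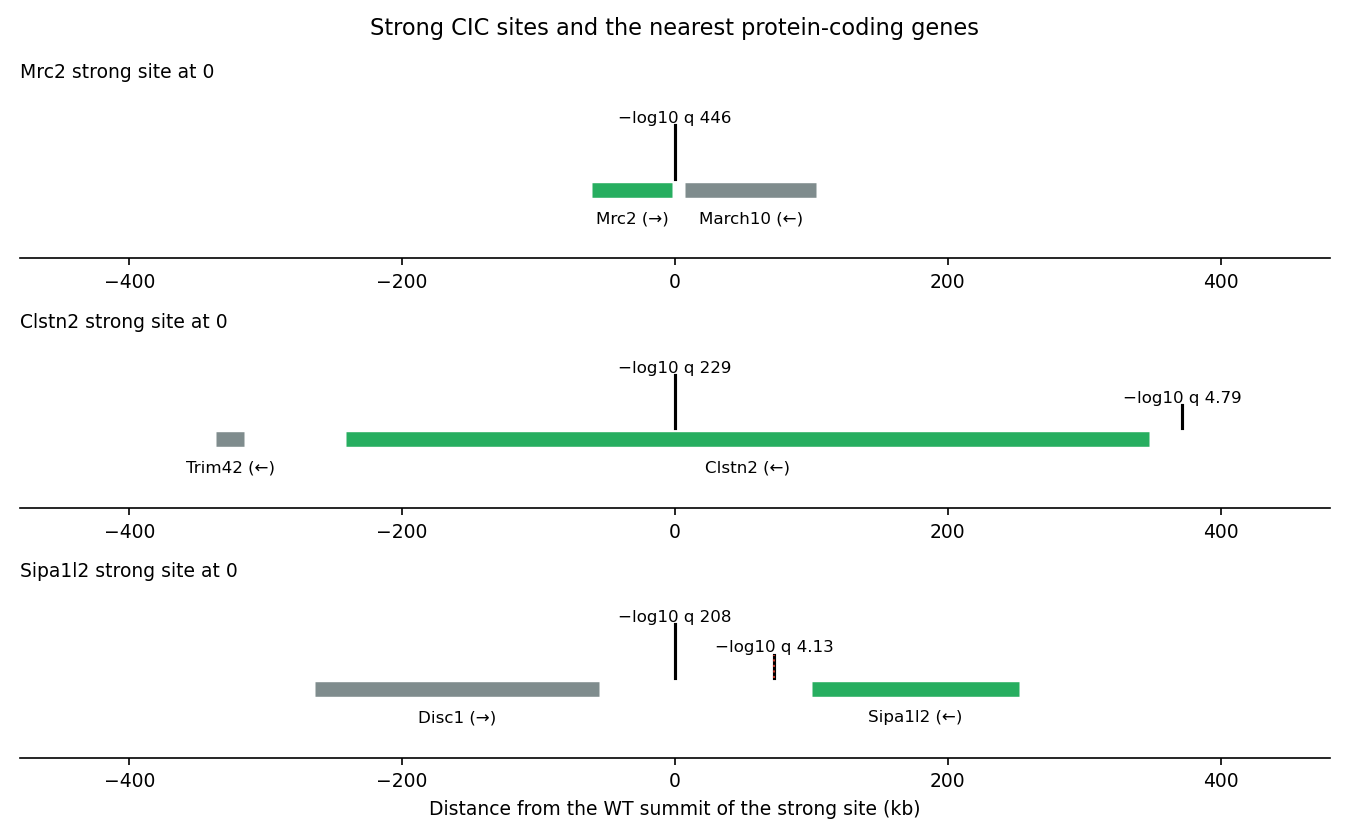
Each panel places the WT summit of a strong site at 0 on an axis of distance in kb, with the bodies of the member gene (green) and of the nearest protein-coding genes (grey) as bars, arrows for their direction and vertical lines for WT peaks, labelled by −log10 q. The dotted line marks a weak peak of the 154Q list. The Mrc2 site sits between 2 gene ends, the Clstn2 site inside the gene and the Sipa1l2 site between Disc1 and Sipa1l2.

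The remaining members were weak. A WT peak at chr9:98057353-98057607, 24262 bp upstream of the Clstn2 start site, had a −log10 q of 4.79 and rank 1827, and neither mutant list held a peak there. At its summit 26 fragments (95% exact Poisson interval 17.0 to 38.1) stood over a background of 6.59. A peak at chr8:125390120-125390492 in WT mice, 27734 bp past the 3′ end of Sipa1l2, had a −log10 q of 4.13, rank 2135 and 39 fragments (27.7 to 53.3). The 154Q list held a summit 42 bp away from it with a −log10 q of 3.98 and rank 801, and the 154Q[V591A;S602D] list held none. No octamer lay within 50 bp of the summit of either weak site. Absence from the 154Q[V591A;S602D] list, the shortest of the 3, does not show that binding was absent at weak sites.

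A peak somewhere in so large a window was common. Over all 21938 protein-coding genes, a window drawn in this way held a WT peak for 59.5%, a 154Q peak for 36.4% and a 154Q[V591A;S602D] peak for 25.9%. In WT mice Mrc2 had 1 such peak and Clstn2 and Sipa1l2 had 2 each, beside a median of 2 over genes with at least 1. All member peaks were distal. No peak in the 3 windows lay within 1 kb of a start site, whether of the members, of the 7 other protein-coding genes with a start there (Tlk2, Mettl2, Gm10842, March10, Trim42, Map10 and Ntpcr) or of the non-coding genes. Windows of this kind held a promoter peak for 51.3% of genes in the WT list, for 30.4% in the 154Q list and for 21.6% in the remaining list. The choice of members by their distal peaks bears on this count, so nothing is read from it. The farthest member summit, that of the Sipa1l2 strong site, lay 100 kb from its gene, and windows of 100 kb would exclude it by 284 bp. The nearest peak outside any window lay 395 kb away. It was a WT peak with a −log10 q of 3.18 beyond the 3′ end of Sipa1l2.

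Among peaks over 1 kb from every start site, called distal here, the strong sites took ranks 1, 2 and 3 in WT (Mrc2, Clstn2, Sipa1l2) and ranks 1, 3 and 2 in 154Q mice. In 154Q[V591A;S602D] mice they took distal ranks 1, 3 and 5. Distal peaks made up 1841 of 4432 WT peaks, 643 of 1690 peaks in 154Q mice and 254 of 848 in mice with the double substitution, and 4, 7 and 5 of the respective top 20. The other distal peaks of the top 20 were of a different kind in their position. The Spred1 intron peak (WT rank 8, −log10 q 173) lay 1539 bp from the Spred1 start site. A second Etv5 peak (154Q rank 10, 154Q[V591A;S602D] rank 17) and a Spred2 peak (154Q rank 14) lay 1157 bp and 1583 bp from the start sites of these genes in the 154Q list. Only the peak of 154Q rank 20 was also remote, 45794 bp from the start site of Brinp2, a gene of neurons. The 3 strong sites were thus the only peaks in the WT top 20 that lay over 20 kb from a protein-coding start site. With non-coding genes included, the Mrc2 site lay 9897 bp from a start site and would not meet this distance.

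**Figure D2:**
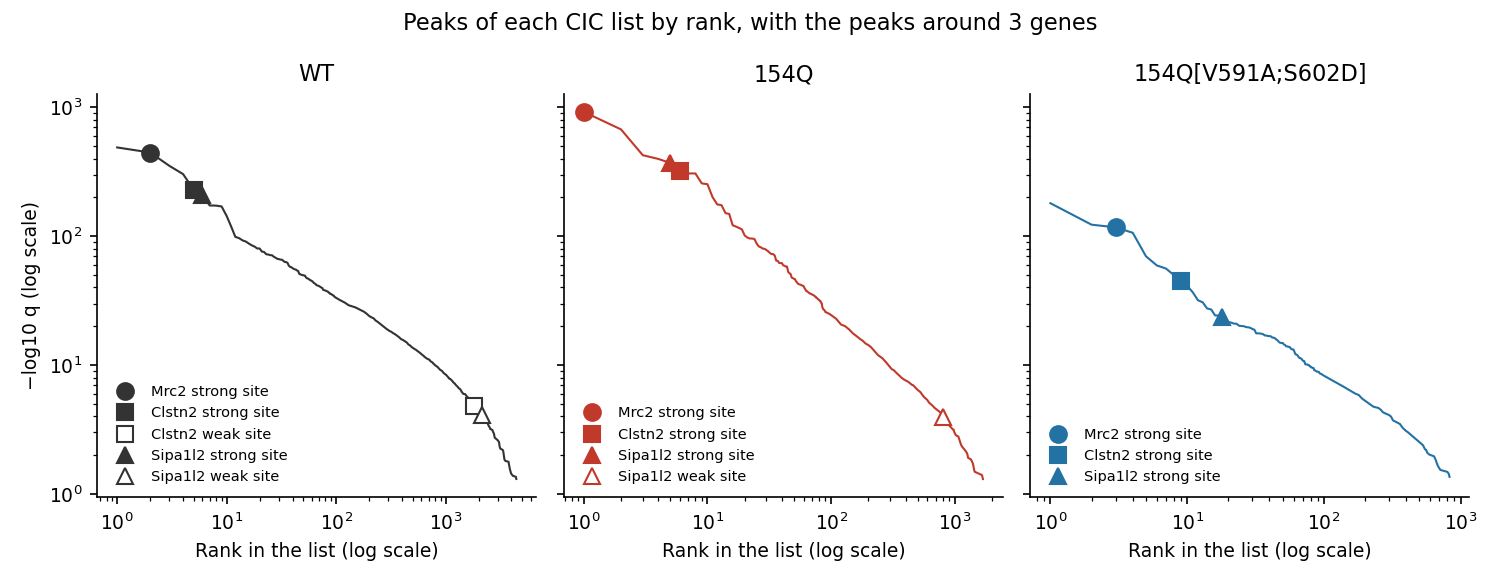
Each panel plots −log10 q against rank, both on log scales, for the peaks of a list after the repeat filter, with the strong (filled) and weak (open) sites marked by gene. The strong sites lie at ranks 1 to 18 and the weak sites at ranks 801 to 2135.

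Summits of the strong sites nearly coincided between genotypes. At the Mrc2 site the WT and 154Q[V591A;S602D] summits were both at chr11:105353355 and the 154Q summit at 105353356. At the Clstn2 site the WT summit was 97685799, the 154Q summit 97685793 and the 154Q[V591A;S602D] summit 97685800, a span of 7 bp. At the Sipa1l2 site they were 125317779, 125317780 and 125317788, a span of 9 bp. Over the 1034 peaks shared by the 154Q and WT lists the median distance between summits was 33.5 bp, and 22.3% of pairs lay within 10 bp. Over the 600 peaks that the 154Q[V591A;S602D] list shared with WT it was 55 bp, with 16.7% within 10 bp. All 3 strong sites lay inside 10 bp in each comparison. Over the 20 peaks of WT ranks 1 to 20, all of them shared with each mutant list, the median distance was 10.5 bp for 154Q and 10 bp for 154Q[V591A;S602D] mice, and 10 and 11 of the 20 lay within 10 bp. Close summits were therefore frequent among strong peaks and are nothing particular to these 3.

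Of WT peaks 9.36% overlapped a peak of both other lists, beside 23% of 154Q peaks and 46.9% of 154Q[V591A;S602D] peaks. All 3 strong sites did, as did all 20 peaks of WT ranks 1 to 20, and neither weak site did. At each strong site −log10 q was higher in 154Q than in WT mice, which held for 30.7% of the 1034 peaks shared by these lists and for 9 of the 20 peaks of WT ranks 1 to 20. It was lower in 154Q[V591A;S602D] than in WT mice at each, as it was for 87.8% of the 600 shared peaks and for all 20 of WT ranks 1 to 20, so the fall at the strong sites is what most shared peaks showed. −log10 q grows with the number of fragments sequenced, which differs between lists and is unknown for 154Q, so depth and binding cannot be told apart in its differences between genotypes.

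The WT and 154Q[V591A;S602D] lists also hold fold enrichment, from which the fragments covering a summit (the pileup) and the scaled CIC KO background under it were solved. At the Mrc2 site the WT pileup was 697 fragments (95% exact Poisson interval 646 to 751) over a background of 63.8, a fold enrichment of 10.8. The 154Q[V591A;S602D] pileup was 292 (259 to 327) over 49.3, a fold enrichment of 5.83. At the Clstn2 site 390 fragments (352 to 431) stood over 40.4 in WT mice, a fold enrichment of 9.45, and 145 (122 to 171) over 30.6 in 154Q[V591A;S602D] mice, a fold enrichment of 4.62. At the Sipa1l2 site 498 fragments (455 to 544) stood over 81.3 in WT mice, a fold enrichment of 6.06, and 188 (162 to 217) over 73.2 in 154Q[V591A;S602D] mice, a fold enrichment of 2.55. All intervals cover counting error only, not differences between animals. The WT pileup was the higher at each site. Pileups are solved from the values that chose the sites and are a description too.

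The WT pileup exceeded that of 154Q[V591A;S602D] mice 2.39-fold at the Mrc2 site (2.08 to 2.75), 2.69-fold at the Clstn2 site (2.22 to 3.28) and 2.65-fold at the Sipa1l2 site (2.24 to 3.15). The median ratio over the 600 shared peaks was 1.64, with quartiles of 1.28 and 2.06, and 76, 42 and 43 shared peaks had a larger ratio than the Mrc2, Clstn2 and Sipa1l2 sites. Over the 20 peaks of WT ranks 1 to 20, all of them shared, the median ratio was 2.15. Their range, 1.62 to 3.54, holds all 3 sites. Over the 20 peaks of 154Q[V591A;S602D] ranks 1 to 20 the median was 1.92 and the range 1.12 to 2.69. The Clstn2 site was the highest of these. The former choice favours high WT pileups and the latter high 154Q[V591A;S602D] pileups. Of the measures that bear on library size, the genome-wide background was 1.25 times as high in the WT list (6.59) as in the mutant list (5.28). The value of a single control count gave a ratio of 1.32. The WT list merges 4 libraries and the mutant list 3, of similar nominal sequencing depth. The pileups are not scaled to the E. coli DNA that the study added to each sample and used to normalise CIC signal. With that scaling the paper describes binding in 154Q[V591A;S602D] mice as back at WT level or slightly below it, so the pileup ratios are not a like measure. The number of short fragments each list rests on is not given, and depth, differences between the 3 or 4 animals of a list and genotype cannot be told apart in the pileup ratios.

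**Figure D3:**
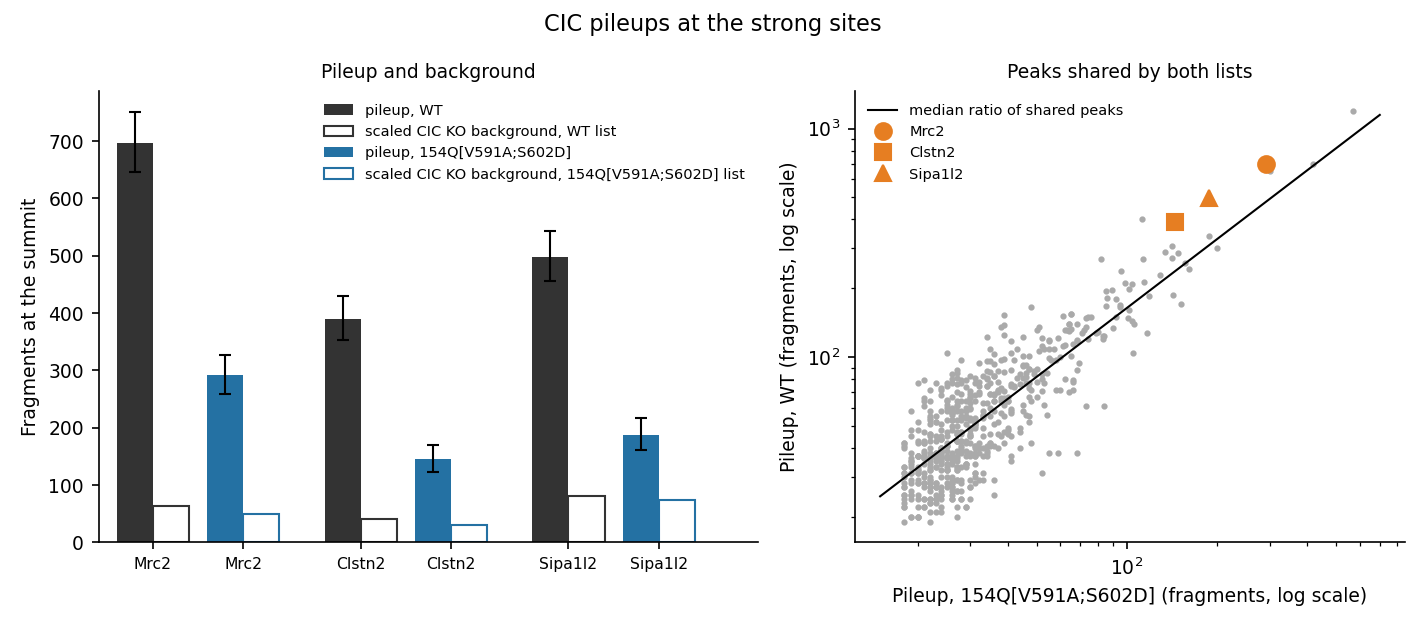
Left, filled bars give the fragments at the summit of each strong site with 95% Poisson intervals and open bars the scaled CIC KO background, on a linear axis from 0. Right, WT against 154Q[V591A;S602D] pileups of the shared peaks on log axes, with a line at their median ratio of 1.64. The strong sites lie above the line at 2.39, 2.69 and 2.65.

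The strong sites carried a high background in the CIC KO libraries. Many backgrounds above the genome-wide value were whole multiples of a fixed step, 0.585 (WT) or 0.444 (154Q[V591A;S602D]), taken here as the value of 1 control count. A control count may be an end of a fragment and not a whole fragment, so these counts are not on the scale of the pileups. Of these backgrounds 70.0% and 66.9% lay within 5% of a step from a whole multiple, and the rest did not. The KO background in the WT list came to 109 control counts at the Mrc2 site, 69 at the Clstn2 site and 139 at the Sipa1l2 site, and to 111, 69 and 165 at the summits and fragment length of the 154Q[V591A;S602D] list. The genome-wide background equals 11.3 and 11.9 counts. In the WT list the 3 backgrounds were thus 9.68, 6.13 and 12.3 times the genome-wide value, whereas the median over all WT peaks was 1.25 times and 5.32% of peaks exceeded 6 times. In the 154Q[V591A;S602D] list they were 9.33, 5.80 and 13.9 times. The 20 strongest WT peaks had a median of 4.69 times with a range of 1.87 to 30.6, the Spred1 intron peak being the lowest. The source of this background was not tested. Fold enrichment, which divides by it, gave other ranks than −log10 q. The Mrc2 site then stood at rank 3 of the WT list and rank 7 of the 154Q[V591A;S602D] list, the Clstn2 site at ranks 12 and 38, and the Sipa1l2 site at ranks 110 and 743.

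Exact octamers lay within 50 bp of the WT summit at the Mrc2 and Clstn2 sites and not at the Sipa1l2 site. The Mrc2 site held 2 exact octamers within 50 bp of the WT summit, TCAATGAA and TGAATGAA on the plus strand, whose starts lay 22 bp and 10 bp to the left of the summit. Another, TGAATGGG with 1 mismatch, overlapped TGAATGAA and began 6 bp to the left, and 2 further 1-mismatch matches without the TGAATG core, TCACTGAA on the minus strand and TCCATGAA on the plus strand, began 34 bp and 14 bp to the left. At the Clstn2 site TGAATGAA began 31 bp to the left of the summit and TGAATGAG, with 1 mismatch, 15 bp to the left. The Sipa1l2 site had no exact octamer within 50 bp. It had TGAATGAC on the minus strand over the summit itself and TGAATGGC on the plus strand beginning 13 bp to the right, each with 1 mismatch at the last base, and its exact TGAATGGA lay 88 bp to the right on the minus strand. At least 1 octamer with no more than 1 mismatch lay within 50 bp of the summit in 19.7% of WT peaks, beside 25.4% in the 154Q and 19.5% in the 154Q[V591A;S602D] list. At least 2 such matches, as at each strong site, were found in 3.81%, 7.93% and 4.01% of peaks.

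An exact octamer was present within 50 bp of the summit in 2.39% of WT peaks, beside 6.57% in the 154Q and 3.54% in the 154Q[V591A;S602D] list. Among distal peaks the shares were 3.42%, 10.1% and 5.12%. Of the 20 strongest peaks, 5 in the WT list, 9 in the 154Q list and 4 in the remaining list had an octamer, among them 3 of the 4 distal peaks of the WT top 20, 3 of 7 in the 154Q top 20 and 3 of 5 in the 154Q[V591A;S602D] top 20. The 2 exact octamers of the Mrc2 site placed it among the 0.226% of WT peaks with at least as many, a share of 1.01% among 154Q peaks and 0.472% among 154Q[V591A;S602D] peaks. Counting the core TGAATG in place of whole octamers, a choice made after seeing the data, each strong site had 2 copies within 50 bp, a count reached by 0.812% of WT peaks, 2.49% of 154Q peaks and 1.53% of peaks with the double substitution. The letters alone do not mark such places. The genome outside repeats holds 6793 groups of 2 or more exact octamers whose neighbouring starts lie within 30 bp, and a WT summit lay within 100 bp of 12 of them (0.177%), a 154Q summit of 13 (0.191%) and a 154Q[V591A;S602D] summit of 5 (0.0736%). The 12 WT cases included the Mrc2 site at rank 2, the Spred1 intron peak at rank 8 and a pair of groups in the Etv4 promoter peak at rank 28, and the other 8 lay in peaks of rank 1400 or weaker.

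**Figure D4:**
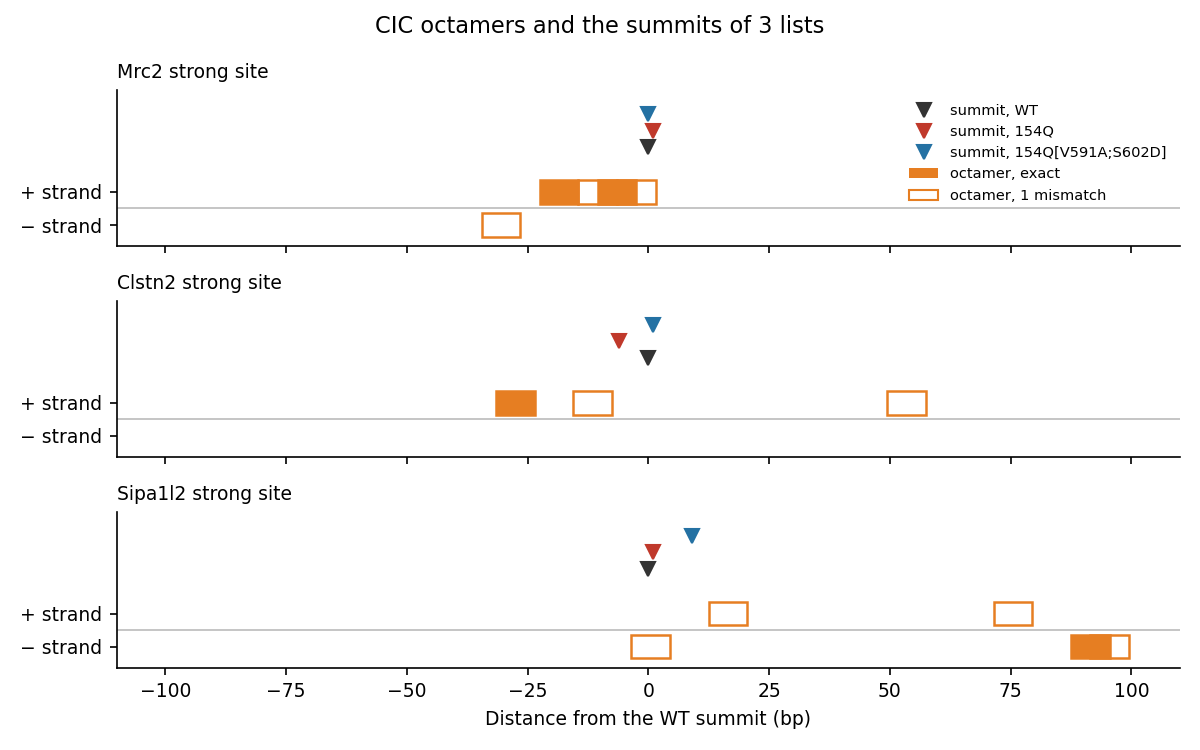
For each strong site, triangles mark the summits of the 3 lists and boxes the octamers on either strand (filled, exact; open, 1 mismatch), by distance in bp from the WT summit. The summits of a site span 1, 7 and 9 bp, and exact octamers lie within 50 bp of the WT summit at the Mrc2 and Clstn2 sites alone.

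The promoters of the members carried no peak. RefSeq promoter windows (GRCm38.p6, 300 bases each) were matched for Clstn2 (1 window) and Sipa1l2 (2 windows), and 0 of them held an exact octamer, beside 3.84% of 32851 windows of all genes. No entry matched Mrc2, whose promoter was not scanned. These letters are absent from these windows, and nothing follows from this about CIC.

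Genes related to the members by sequence were examined for peaks near the gene. The rule finds no peak for Mrc2 and Sipa1l2 themselves, whose strong sites lie past the gene end, and 1 of the 3 members, Clstn2, in every list, so it does not look for sites of their kind in the paralogs. Of 8 paralogs (Mrc1, Pla2r1, Ly75, Clstn1, Clstn3, Sipa1, Sipa1l1 and Sipa1l3), 2 had a WT peak in the gene or up to 5 kb upstream of it, Clstn3 (rank 3329) and Sipa1l3 (rank 932), beside 16.2% of all protein-coding genes. In 154Q mice 2 of 8 had one, Sipa1l1 (rank 1070) and Sipa1l3 (rank 1285), beside 6.94% of genes, and in 154Q[V591A;S602D] mice 0 of 8, beside 3.72%. None of these peaks lay within 1 kb of the gene's start site. By the same rule, 9 of 12 established CIC targets had a WT peak, 11 a 154Q peak and 7 a 154Q[V591A;S602D] peak. In the WT list the strong sites ranked among the best peaks of these targets, behind Etv5 (rank 1) and Spry4 (rank 4) for Clstn2 and Sipa1l2, and ahead of Spred1 (rank 8), Dusp4 (rank 11), Etv1 (rank 24) and Etv4 (rank 28). In the 154Q[V591A;S602D] list the order differed, with Spred1 at rank 7 ahead of Clstn2 at rank 9, and Dusp4 at rank 13 ahead of Sipa1l2 at rank 18. By fold enrichment the Spred1 intron peak, at 16.0 in WT mice, stood above all 3 strong sites.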

How the data were processed

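Nuclei of 15 cerebella were profiled by the authors with 3 antibodies (45 samples), and the CIC peak lists were used here. Per the methods and the submitters' processing notes, reads were trimmed (Trimmomatic 0.36), aligned to mm10 (GRCm38) with Bowtie2 2.3.4.1 and handled with SAMtools 1.10 and bedtools 2.29.1. Short fragments were kept for CIC, animals of a genotype were merged, and MACS3 called peaks from fragments at a q-value threshold of 0.05 against merged CIC KO libraries. The WT and the 154Q[V591A;S602D] list, as deposited, give a score, a fold enrichment (ratio of pileup to background, each plus 1), −log10 p, −log10 q and the summit offset, a distance in bp. The deposited 154Q list gives summits and −log10 q alone. Total depth is not given in the lists.

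Summits were collapsed to distinct peaks on the assembled chromosomes, represented by the best summit, with 1-based coordinates. For ranks, WT and 154Q[V591A;S602D] peaks over 50% repeat-masked were left out, as the authors did for 154Q. A 154Q peak spans its summits, and 1 bp of overlap counted as shared. Genes came from GENCODE M21 basic and sequence from GRCm38.p6. The pileup was the whole number whose Poisson tail gave the deposited −log10 p at the deposited fold enrichment, and was solved for 99.98% of WT and 100% of 154Q[V591A;S602D] peaks. The solver and the octamer scan were tested on simulated data. Python 3.11.15, numpy 2.4.6, scipy 1.17.1, pandas 2.3.3 and pysam 0.24.0 were used. The genes named are the members, the genes flanking the strong sites, genes with a start site within the windows, paralogs, 12 CIC targets and genes nearest other distal peaks of any top 20. The gene of each octamer group in a peak of WT rank 28 or better was named after its values were seen. Members and lists were chosen with earlier results of these data known. Alternatives were other windows, thresholds, repeat filters, ranking measures, summit rules, octamer spellings and promoter distances.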

Additional observations from a re-analysis of the deposited data

How the results depend on the processing

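Of 58 values recomputed under another choice, 29 stayed within 1.5 times the reported value. The number of peaks around the genes was 9 with windows of 100 kb, which exclude the Sipa1l2 strong site by 284 bp, 15 with windows of 500 kb, 13 with every summit counted, and 12 at q below 0.001 or without peaks over 50% repeat-masked. No promoter peak appeared at 500 bp or 3 kb. In the lists as deposited extra summits stay in, and so do repeat peaks in the WT and 154Q[V591A;S602D] lists. WT ranks then became 5 (Mrc2), 11 (Clstn2) and 14 (Sipa1l2), and 154Q[V591A;S602D] ranks 11, 19 and 31. The 154Q list was deposited after its repeat filter, so its unchanged ranks of 1, 6 and 5 say nothing about that filter. By fold enrichment the Clstn2 rank became 12 in WT and 38 in 154Q[V591A;S602D] mice, the Sipa1l2 rank 110 and 743, and the Mrc2 rank 3 and 7. Among distal peaks the ranks of Mrc2, Clstn2 and Sipa1l2 were 1, 2 and 3 in WT, 1, 3 and 2 in 154Q, and 1, 3 and 5 in 154Q[V591A;S602D] mice. With the nearest pair of summits, the median distance over shared peaks was 22 bp (154Q and WT), 29 bp (154Q[V591A;S602D] and WT) and 21 bp (154Q and 154Q[V591A;S602D]), still over the 1, 7 and 9 bp at the strong sites. The Clstn2 site held 0 octamers within 25 bp, the Sipa1l2 site 1 within 100 bp and the Mrc2 site 1 with TGAATGAA alone. With the core TGAATG, an alternative chosen after seeing the data, the Clstn2 and Sipa1l2 sites held 2 copies each. Within 1 kb of a start site, 0 paralogs had a WT and 0 a 154Q peak.

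No paired analysis was possible because the peak lists used here merge the animals of each genotype, and they do not allow an animal to be left out. The separate libraries of the animals were not analysed here. Every value of a list rests on 1 merged library set against 1 shared control, the fragment total of a list is not given, and intervals cover counting error alone.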
